A study of Mus musculus with 19 samples.

Results

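The genes followed here were 34 genes of hypoxia and glycolysis, grouped by function. The list was chosen with earlier results of these data known. All 34 were found among the 27998 mouse genes listed in each of the 19 single cell count matrices. By role they comprised 2 glucose transporters (Slc2a1, Slc2a3), 13 glycolytic enzymes (Hk1, Hk2, Gpi1, Pfkl, Pfkp, Aldoa, Aldoc, Tpi1, Pgk1, Pgam1, Eno2, Pkm, Ldha), 2 enzymes that set the level of the glycolytic activator fructose 2,6-bisphosphate (Pfkfb3, Pfkfb4), 2 lactate transporters (Slc16a1, Slc16a3) and Pdk1, a pyruvate dehydrogenase kinase that limits the use of pyruvate in mitochondria. The rest were 2 mitophagy receptors (Bnip3, Bnip3l), the 2 alpha subunits of hypoxia-inducible factor (Hif1a, Epas1), 2 prolyl hydroxylases that mark those subunits for decay (Egln1, Egln3), 3 genes of collagen hydroxylation and oxidative protein folding (P4ha1, P4ha2, Ero1l) and 5 other target genes of the factor (Ndrg1, Adm, Ankrd37, Car9, Mif). Each gene had at least 1 read in the 4 cell types described below.

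As background, glycolysis splits glucose into pyruvate in the cytosol, and cells short of oxygen reduce the pyruvate to lactate and export it. The alpha subunits of hypoxia-inducible factor (HIF) are made all the time, and in the presence of oxygen the prolyl hydroxylases tag them for destruction. When oxygen falls the subunits persist, pair with Arnt and bind short DNA cores near glucose transporter, glycolytic enzyme and lactate transporter genes. Activated macrophages and neutrophils are also known to rely on glycolysis where oxygen is plentiful, and wounded tissue is known to lose its blood supply.

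The cells came from the mouse hind limb in a model of heterotopic ossification, in which a scald burn over 30% of the body surface is combined with cutting of the Achilles tendon (burn/tenotomy), and were sequenced with a 3′ droplet kit after enzymatic digestion of the tissue. The labels give day 0 with 4 libraries, day 3 with 3, day 7 with 4 and day 21 with 4 after injury, and 4 libraries of mice given p7N3, a peptide that activates the receptor CD47, at 10 mg/kg by intraperitoneal injection daily for 3 days before and 3 days after burn/tenotomy. The study's methods describe day 0 as uninjured, although the labels list the burn for it as well, and describe PBS injection for the mice set against p7N3, although the labels name no vehicle. C57 mice and LysmCre/Tgfb1fx/fx mice, in which a Cre driven in myeloid cells deletes Tgfb1, are both named in the labels of the study but no library is labelled as either, and the methods describe male C57BL/6J mice for work with wild-type mice in general. The p7N3 libraries were set against day 7, as the labels of replicates 1 to 3 have it, and replicate 4 carries no day. Nothing in the labels says that libraries of a group came from separate animals, so p-values measured the spread between these libraries.

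The DNA cores that HIF binds were looked up in the upstream sequence of the genes, because the choice of the list did not use these sequences, although many of its genes were listed as known HIF targets. RefSeq sequence (mouse build GRCm38.p6) of the 250 bases before a transcription start was at hand for 29 of the 34 genes, in 37 windows. Slc2a3, Bnip3l, Ndrg1, Ero1l and Epas1 had no match. The letters ACGTG or GCGTG were searched on both strands, and overlapping matches were counted as 1. At least 1 core stood before 25 of the 29 genes (86.2%), against 41.5% of 27025 genes with such a window and 63.2% of the 6476 among them with a mean of at least 10 CPM (UMIs of a gene in each 1e6 UMIs) in these cells. At least 2 cores stood before 17 of the 29 (58.6%), against 15.3% and 28.6%. Gpi1, Tpi1, Eno2 and Mif had none. A match describes these letters only and does not show binding.

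The windows of 6 genes are given 5′ to 3′ on the gene's strand, with the cores in capitals, since these genes carry the results below. Where a gene has several start sites the window with the most cores is shown. Ankrd37 lies at chr8:45999851-46000100 on the minus strand (3 cores), Bnip3 at chr7:138909507-138909756 on the minus strand (4), Slc16a3 at chr11:120948817-120949066 on the plus strand (2), Pgk1 at chrX:106186850-106187099 on the plus strand (2), Ldha at chr7:46845554-46845803 on the plus strand (3) and Mif, shown as the contrast with no core, at chr10:75860278-75860527 on the minus strand.
Ankrd37: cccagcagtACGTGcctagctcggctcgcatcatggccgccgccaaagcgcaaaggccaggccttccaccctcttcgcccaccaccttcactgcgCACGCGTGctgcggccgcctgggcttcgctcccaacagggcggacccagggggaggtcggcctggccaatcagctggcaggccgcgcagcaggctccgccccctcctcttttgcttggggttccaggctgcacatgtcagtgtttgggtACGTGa
Bnip3: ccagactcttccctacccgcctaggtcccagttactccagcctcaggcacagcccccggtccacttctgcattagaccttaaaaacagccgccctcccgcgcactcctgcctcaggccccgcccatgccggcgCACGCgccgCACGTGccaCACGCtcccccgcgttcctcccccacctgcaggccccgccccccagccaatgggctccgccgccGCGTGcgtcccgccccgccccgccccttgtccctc
Slc16a3: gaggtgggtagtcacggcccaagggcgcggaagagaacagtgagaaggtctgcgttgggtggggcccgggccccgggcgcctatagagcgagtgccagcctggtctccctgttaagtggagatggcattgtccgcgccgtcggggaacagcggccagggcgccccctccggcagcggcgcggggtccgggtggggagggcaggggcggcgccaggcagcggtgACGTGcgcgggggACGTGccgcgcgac
Pgk1: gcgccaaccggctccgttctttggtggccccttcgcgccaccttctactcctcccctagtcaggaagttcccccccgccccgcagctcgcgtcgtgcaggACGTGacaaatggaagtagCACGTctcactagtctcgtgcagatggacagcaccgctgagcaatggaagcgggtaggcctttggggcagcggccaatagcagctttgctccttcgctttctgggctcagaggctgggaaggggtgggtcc
Ldha: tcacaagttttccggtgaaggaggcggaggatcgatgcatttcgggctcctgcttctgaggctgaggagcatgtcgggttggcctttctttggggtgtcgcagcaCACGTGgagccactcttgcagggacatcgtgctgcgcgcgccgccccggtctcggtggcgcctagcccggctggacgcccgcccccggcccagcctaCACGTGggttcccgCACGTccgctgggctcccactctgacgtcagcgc
Mif: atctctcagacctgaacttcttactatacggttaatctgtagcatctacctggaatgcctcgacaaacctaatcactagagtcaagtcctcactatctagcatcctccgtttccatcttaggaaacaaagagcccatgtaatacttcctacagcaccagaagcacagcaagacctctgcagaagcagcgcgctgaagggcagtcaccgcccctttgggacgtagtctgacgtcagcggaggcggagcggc

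Cell types were rebuilt by clustering without the 34 genes. Of 39541 cells, 26695 fell into 4 types named from their markers: 14471 macrophage-like, 8755 stromal-like, 3057 endothelial-like and 412 neutrophil-like cells. Each named type held its own marker list at a higher level than the other types did. The clusters were named from these same lists, so this is not a separate check. The 24 macrophage markers summed to 33206 to 50350 CPM in macrophage-like cells from day 0 to day 21, and the 22 stromal markers to 59725 to 97311 CPM in stromal-like cells. Day 0 libraries were the shallowest, with 3019467 to 5383855 UMIs (counted molecules) in all, and other libraries held 11064153 to 39870492. Only 35 stromal-like cells were found at day 3, of which 20 lay in the 1 library that reached 10 cells. There a further 762 cells formed a cluster led by Prg4 with all 22 stromal markers detected but with Lcn2, a neutrophil marker, among its leading genes, so it was not named. Day 3 mesenchymal values therefore rest on this Prg4-led cluster added to the stromal-like cells. Pairs of libraries shared 0 to 1.26% of their barcodes. Processed copies of Gapdh, Pgk1, Pgam1, Tpi1, Ldha, Pkm, Aldoa, Mif and Eno1 elsewhere in the genome can take their reads, so the levels of these genes are uncertain, and levels are compared between samples and not between genes. In sums over cells, fewer expressing cells and less RNA per cell cannot be told apart.

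To follow the list over time, the mean of log2(CPM + 10) over the 34 genes was taken in each library and cell type. In macrophage-like cells this score was 5.27 ± 0.07 at day 0 (SD, n = 4), 5.95 ± 0.16 at day 3 (n = 3), 5.57 ± 0.15 at day 7 (n = 4) and 5.44 ± 0.03 at day 21 (n = 4). The day 3 libraries, at 5.79 to 6.11, all lay above the 12 others of untreated injury or day 0, of which the highest was 5.75. Stromal-like cells scored 5.41 ± 0.06 at day 0, 5.84 ± 0.11 at day 7 and 5.53 ± 0.03 at day 21 (each n = 4), and the Prg4-led cluster scored 6.09 ± 0.06 at day 3 (n = 3). Endothelial-like cells moved less, from 5.71 ± 0.01 at day 0 to 5.94 ± 0.11 at day 3, 5.80 ± 0.08 at day 7 and 5.80 ± 0.03 at day 21. Neutrophil-like cells at day 3 held the highest mean of the 5 populations plotted, 6.43 ± 0.22 (n = 3). Within macrophage-like cells at day 3, the cluster led by Arg1, Gpnmb and Spp1 overlapped with these neutrophil-like libraries. Its highest library lay above all of them, as given below. The score is a description and carries no test.

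**Figure D1:**
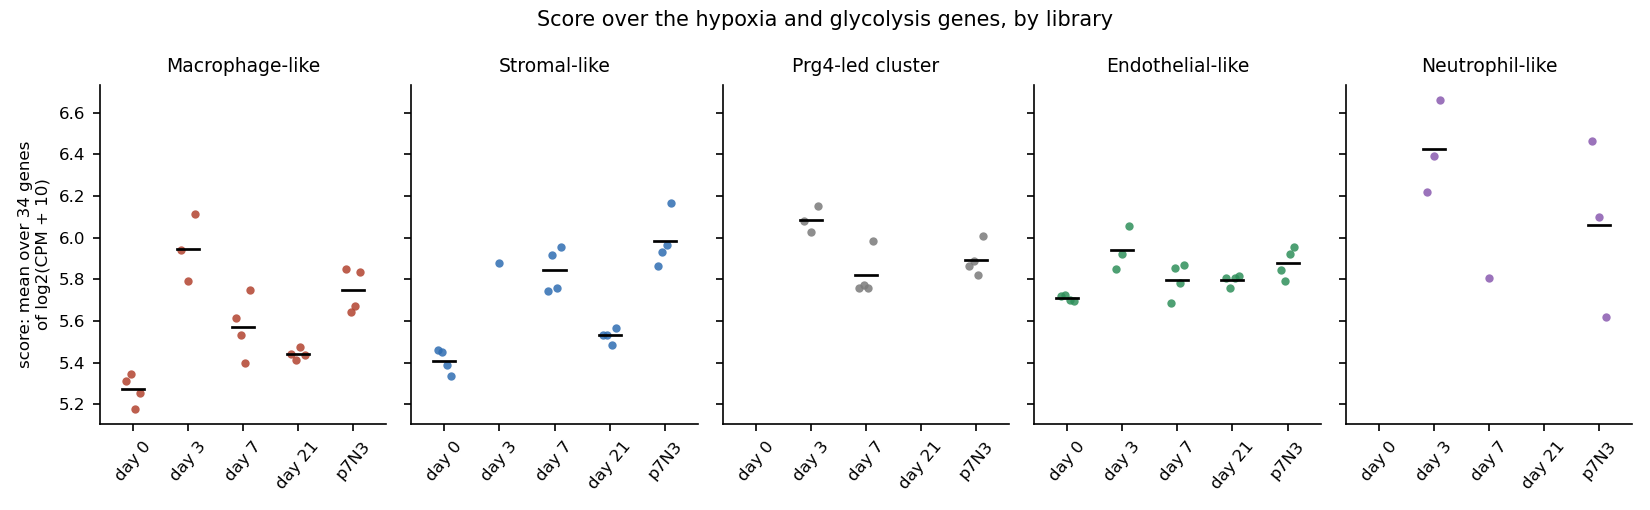
Mean of log2(CPM + 10) over the 34 hypoxia and glycolysis genes (y axis) by group (x axis: day after injury, and p7N3) in macrophage-like cells, stromal-like cells, the Prg4-led cluster, endothelial-like cells and neutrophil-like cells; each point is a library with at least 10 cells and the black line is the mean. Macrophage-like libraries sit at 5.18 to 5.35 at day 0 and 5.79 to 6.11 at day 3, and neutrophil-like libraries at 6.22 to 6.66 at day 3.

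Macrophages were compared first, because the study asks how monocytes and macrophages act after burn/tenotomy. At day 3 most of the glycolytic enzyme genes tested were higher than at day 0, as was the gene for lactate export. Aldoa, Tpi1, Pgk1, Pgam1, Pkm and Ldha rose by 1.298 to 2.735 on the log2 scale, together with the lactate exporter Slc16a3 (2.42 ± 0.22, SE), Hif1a (2.22 ± 0.18) and the cytokine Mif (2.21 ± 0.15). The hexokinase gene Hk2 went the other way (-1.18 ± 0.21). Of the 34 genes 24 passed the filter on low counts and were tested (edgeR quasi-likelihood test, p-values adjusted over all genes tested, called under 0.05), of which 16 were higher (24.8% of all 6316 genes tested were higher) and 2 lower (27.9% of all genes). The median log2 fold change was 1.36 over the 24 genes and -0.01 over all genes. Among the 11 enzymes tested 8 were higher and 1 lower. The higher ones included Gpi1 and Pfkl, which act before aldolase. The genes too low to be tested were Slc2a3, Aldoc, Eno2, Slc16a1, Egln3, Adm, P4ha2, Ankrd37, Epas1 and Car9.

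The pyruvate kinase gene Pkm, the last step to pyruvate, stood at 317, 240, 215 and 255 CPM in the 4 day 0 libraries and at 1108, 874 and 1092 CPM in the 3 day 3 libraries. The groups were far apart, with a log2 fold change of 2.04 ± 0.14 (SE, adjusted p = 1.65e-07). Pgk1, the first ATP-yielding step, was at 23.5, 14.5, 19.5 and 25.5 CPM at day 0 and at 138, 97.6 and 175 CPM at day 3 (log2 2.74 ± 0.31, adjusted p = 1.47e-05). Ldha, which turns pyruvate into lactate, rose from 167 to 230 CPM at day 0 to 499 to 639 CPM at day 3 (log2 1.62 ± 0.13, adjusted p = 9.18e-07). Every day 3 library was above every day 0 library for these 3 genes.

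At the cell membrane, Slc16a3, which exports lactate, rose from 43.8, 25.5, 22.8 and 41.5 CPM at day 0 to 203, 142 and 199 CPM at day 3 (log2 2.42 ± 0.22, adjusted p = 2.7e-06). The glucose transporter Slc2a1 rose from 12.5, 18.2, 6.50 and 9.58 CPM to 39.6, 29.2 and 47.2 CPM (log2 1.78 ± 0.38, adjusted p = 0.00167). Neither gene's groups overlapped. Hk2, which traps glucose in the cell, stood at 89.1, 127, 58.5 and 86.2 CPM at day 0 and at 41.4, 30.2 and 42.0 CPM at day 3 (log2 -1.18 ± 0.21, adjusted p = 0.000534). The mRNA of these transporters thus moved up while that of this first enzyme moved down. The activator enzyme gene Pfkfb4 was also lower, at 25.01 to 35.11 CPM at day 0 and 15.9 to 19.3 CPM at day 3 (log2 -0.66 ± 0.22, adjusted p = 0.0246).

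Of the HIF machinery, Hif1a mRNA stood at 56.3, 58.2, 42.3 and 60.7 CPM at day 0 and at 278, 190 and 262 CPM at day 3 (log2 2.22 ± 0.18, adjusted p = 1.09e-06), with no overlap. HIF is known to be set mainly at the level of the protein, which was not measured here. Egln3, a HIF target that feeds back on the factor, had no UMI in day 0 macrophage-like cells, which allows up to 1.95 CPM over the group, and stood at 8.12, 7.90 and 26.2 CPM at day 3, the highest being replicate 3. It did not pass the filter for testing. Of the mitochondrial genes, the mitophagy receptor Bnip3 rose from 17.2 to 32.5 CPM to 59.3 to 120 CPM (log2 1.94 ± 0.43, adjusted p = 0.00227) and Pdk1 by 1.66 ± 0.43 on the log2 scale (adjusted p = 0.00573). Ero1l, which reoxidises the protein folding machinery, rose by 1.86 ± 0.59 (adjusted p = 0.0178). Ndrg1, a HIF target, passed the test with overlapping groups (log2 1.00 ± 0.35, adjusted p = 0.0266). Hk1, Pfkp, Pfkfb3, Bnip3l, Egln1 and P4ha1 were tested and did not pass.

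The macrophage-like cells were not the same cells at both days. At day 0, 74.1% of them lay in cluster 16, led by Cd209f, Cd163 and Folr2, markers of resident macrophages, and at day 3 only 2% did, when 46.3% lay in cluster 3 (Mrc1, Pf4, Tnf) and 33.2% in cluster 6 (Chil3, Ly6c2). Within cluster 16 alone, with 286 cells at day 0 and 76 at day 3, 8 of the 13 genes that could be tested were higher (25.6% of all genes) and 2 lower (26.7%), a choice made after the data were seen. Mif (log2 2.53 ± 0.16, adjusted p = 1.48e-09), Pkm (2.17 ± 0.16, adjusted p = 1.18e-08), Pgk1, Ldha, Pgam1, Hif1a (1.503 ± 0.191, adjusted p = 8.08e-06), Aldoa and Tpi1 were higher there, and Hk2 and P4ha1 lower. Slc16a3, Slc2a1 and Bnip3 were too low to be tested in it. The cluster 16 cells had medians of 14307, 18184 and 14381 UMIs in the day 3 libraries and 2908.5 to 3889 at day 0. The part of doublets in this cluster was not tested. Over all macrophage-like cells, those at day 0 were also shallower, with a median of 2961 to 4298 UMIs per library against 9381 to 9921 at day 3. With the sums thinned to the smallest library 12 genes passed, 11 higher and 1 lower, without a count over all genes. The 17 neutrophil markers summed to 1973 to 2957 CPM in day 3 macrophage-like cells and 185 to 280 CPM at day 0, and their part in these results was not tested.

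**Figure D2:**
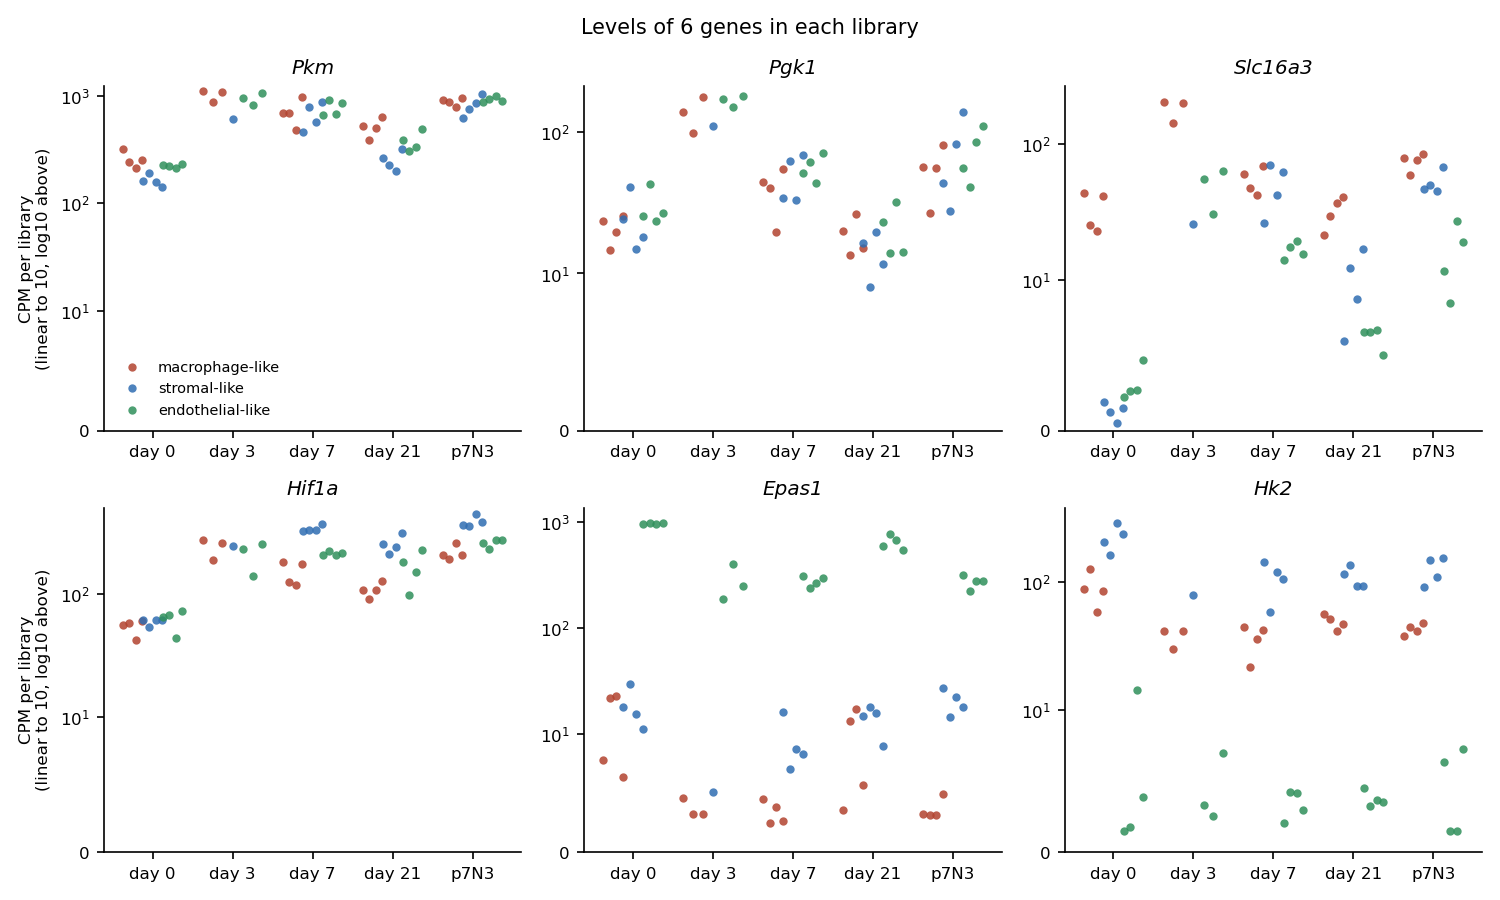
CPM of Pkm, Pgk1, Slc16a3, Hif1a, Epas1 and Hk2 in each library (y axis, linear up to 10 and log10 above) by group (x axis), in macrophage-like, stromal-like and endothelial-like cells (colours). Pkm in macrophage-like cells lies at 215 to 317 CPM at day 0 and at 874 to 1108 CPM at day 3, and Epas1 in endothelial-like cells at 953 to 981 CPM at day 0 and at 186 to 401 CPM at day 3.

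From day 3 to day 7 all 34 genes could be tested in macrophage-like cells, and 12 fell (15.6% of all 11324 genes were lower) while 2 rose (14.2%). The median over the 34 genes was -0.43 and over all genes 0.01. The largest falls among the genes called were those of Egln3, Pgk1 and Slc16a3. Slc16a3 returned to 59.7, 47.1, 42.3 and 68.5 CPM (log2 -1.69 ± 0.17, adjusted p = 0.000144) and Pgk1 to 44.1, 39.9, 19.5 and 55.0 CPM (log2 -1.72 ± 0.27, adjusted p = 0.00124). Neither overlapped with day 3. Egln3 fell to 3.15, 2.11, 0.966 and 4.94 CPM (log2 -2.19 ± 0.52, adjusted p = 0.00985). Slc2a1, Slc16a1, Ero1l, Ankrd37 (with overlap), Hif1a, Gpi1, P4ha1, Ldha and Pfkfb3 fell by 0.37 to 1.22 on the log2 scale. Eno2 (log2 0.86, adjusted p = 0.0147) and, with overlap, Pfkfb4 (0.51, adjusted p = 0.0175) were higher. Pkm did not pass (log2 -0.49, adjusted p = 0.0707). This count leaned on day 3 replicate 3. When that library was left out 8 genes passed, without a count over all genes.

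Among the macrophage clusters the score was highest in cluster 1, led by Arg1, Gpnmb and Spp1, at day 3, with 6.32, 6.35 and 6.88 in the 3 libraries. In the same cluster at day 7 it was 5.83 ± 0.10 (n = 4) and at day 21 5.81 ± 0.09 (n = 4). Cluster 16 scored 5.14 ± 0.06 at day 0, 5.58 ± 0.09 at day 3 and 5.13 ± 0.04 at day 7. Within cluster 1, which held 12.6% of macrophage-like cells at day 3 and 32.5% at day 7, 20 of 30 genes tested were lower at day 7 (12.6% of all genes) and 0 higher (10.5%). No gene of the list was higher in cluster 1 at an unadjusted p under 0.05 either. Egln3 was lower by 3.32 on the log2 scale, Pgk1 by 2.25, Ero1l by 2.13, Bnip3 by 1.65, Slc16a3 by 1.64, Slc16a1 by 1.61, Slc2a1 by 1.49 and Ndrg1 by 1.31. Pkm, with log2 -0.58, passed here (adjusted p = 0.00832).

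In macrophage-like cells at day 21 against day 7, 7 of 30 genes tested were lower (7.14% of all genes) and 1 higher (7.29%). Mif fell from 456, 413, 318 and 539 CPM to 236, 232, 273 and 254 CPM (log2 -0.86 ± 0.14, adjusted p = 0.00188) and Slc16a3 to 21.4, 29.6, 36.9 and 40.5 CPM (log2 -0.80, adjusted p = 0.0141), both without overlap. Pgk1, Bnip3, Pfkl, Aldoa and Hif1a also passed, with overlapping groups. Epas1, the second HIF alpha subunit, was higher (log2 1.40 ± 0.39, adjusted p = 0.0298), at 3.57, 13.5, 17.2 and 5.71 CPM against 2.53 to 4.55 CPM, again with overlap. When any one of day 21 replicates 1, 2 and 3 was left out, 5 genes passed, without a count over all genes. Within cluster 16 edgeR called 0 of 14 genes, with 2.77% of all genes higher and 1.50% lower. At an unadjusted p under 0.05, 0 were higher and 1 lower, where 17.25% of all genes passed in either direction. That cluster held 6.03% of the type at day 7 and 28.7% at day 21.

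Against day 0, 8 of 24 genes were still higher at day 21 (12.2% of all genes) and 1 lower (13.7%). Hif1a stood at 108, 91.6, 108 and 129 CPM (log2 1.12 ± 0.18, adjusted p = 0.000153), Pkm at 522, 389, 501 and 635 CPM (1.09 ± 0.16, adjusted p = 0.000104) and Mif was higher by 1.23 ± 0.13 (adjusted p = 4.17e-06). None of these 3 overlapped with day 0. Pgam1, Tpi1, Ldha, Aldoa and, with overlap, Bnip3 were higher by 0.73 to 1.11. Hk2 remained below day 0, at 41.9 to 56.4 CPM (log2 -0.75 ± 0.19, adjusted p = 0.00715). Slc16a3 and Pgk1, the tested genes that had risen most at day 3, were close to day 0, with log2 -0.01 ± 0.27 and -0.10 ± 0.31. Within cluster 16 alone 3 of 14 genes were higher (7.62% of all genes) and 0 lower (9.05%). At an unadjusted p under 0.05, 5 were higher and 2 lower, where 30.29% of all genes passed in either direction.

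Of the 68 other genes of these pathways, 42 could be tested in macrophage-like cells at day 3 against day 0, of which 19 were higher and 5 lower (24.8% and 27.9% of all genes). Among 15 further HIF targets 9 were higher and 3 lower, and among 7 genes of the pentose phosphate pathway 4 were higher and 1 lower. The vascular growth factor Vegfa rose from 3.13 to 12.8 CPM to 31.8 to 64.6 CPM (log2 2.86 ± 0.60, adjusted p = 0.00161) and the enolase gene Eno1 from 141 to 236 CPM to 607 to 802 CPM (2.12 ± 0.17, adjusted p = 7.88e-07). The transferrin receptor gene Tfrc, also a known HIF target, moved the other way, from 61.8 to 138 CPM to 22.3 to 24.6 CPM (log2 -1.82 ± 0.20, adjusted p = 1.09e-05), as did Rora and the histone demethylase gene Kdm3a. At day 7 against day 3, 7 of 59 were higher, led by Ldhb, and 15 lower, among them Cited2 and Jmjd6 (14.2% and 15.6% of all genes). At day 21 against day 7, 1 of 55 was higher and 10 lower (7.29% and 7.14%), and against day 0, 9 of 41 were higher and 7 lower (12.2% and 13.7%).

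In stromal cells the same question could be asked for day 0, day 7 and day 21, and for day 3 with the Prg4-led cluster added. At day 3 these mesenchymal cells held more mRNA for lactate export and for most glycolytic enzymes than at day 0, and less for Epas1, Adm and Pfkp. Of 29 genes tested 19 were higher (33.1% of all 10377 genes were higher) and 5 lower (32.8%), with a median of 0.91 over the 29 genes and -0.002 over all genes. The share of genes called was high across the transcriptome in this comparison, in which 762 of 797 cells at day 3 and 4 of 1147 at day 0 lay in the Prg4-led cluster. Cells of that cluster were deep, with a median of 33559.5 to 41478 UMIs per library at day 3 against 4319 to 6209 in stromal-like cells at day 0, and 2.79 times the median of their own libraries over all groups. With sums thinned to the smallest library 21 genes passed, 16 higher and 5 lower, without a count over all genes. The part of doublets was not tested.

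The CPM given here are of stromal-like cells at day 0 and of the Prg4-led cluster alone at day 3. Fold changes and p-values are of both sets of cells added together at each day. Slc16a3 stood at 1.91, 1.28, 0.553 and 1.503 CPM in day 0 stromal-like cells and at 78.0, 54.8 and 90.3 CPM in the Prg4-led cluster at day 3 (log2 5.74 ± 0.34, adjusted p = 6.49e-09). At day 0, 3 UMIs over the stromal-like group amount to 0.499 CPM. Slc16a3 thus rested on few UMIs there, and the size of its fold change is uncertain. Mif stood at 129 to 143 CPM at day 0 and at 1128, 964 and 1218 CPM at day 3 (3.12 ± 0.11, adjusted p = 1.02e-10). Pkm stood at 141 to 190 CPM and at 1099, 957 and 1136 CPM (2.80 ± 0.11, adjusted p = 1.73e-10). All 3 were separate between the groups, as was Hif1a, at 53.8 to 61.7 CPM and at 311, 284 and 320 CPM (2.43 ± 0.10, adjusted p = 2.9e-10). Pfkl, which commits sugar to glycolysis, rose by 3.96 ± 0.27 and Pgk1 by 3.05 ± 0.19. Ldha, Slc2a1, Slc16a1, Pdk1, Pfkfb3, Pgam1, Tpi1, Gpi1, Ankrd37, Ero1l, Aldoa, Bnip3 and, with overlap, P4ha1 were higher by 0.24 to 2.35. Pfkp, the vasodilator gene Adm, Epas1, Bnip3l and Ndrg1 were lower by 0.74 to 1.08. With further unnamed mesenchymal clusters added as well, Slc2a1 turned to log2 -1.16.

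From day 3 to day 7, 14 of 32 genes were lower in these cells (24.2% of all genes) and 2 higher (24.0%). Pgk1 was lower by 1.94 on the log2 scale, Egln3 by 1.35 and Slc2a1 by 1.01 (both with overlap), Slc16a1 by 0.92, Ldha by 0.90 and Pkm by 0.76, and Hk2, Ero1l, Gpi1, Mif, Ankrd37, Pgam1, Aldoa and P4ha1 were lower by 0.47 to 0.90. Bnip3l (0.76) and Eno2 (1.18) were higher. Slc16a3 was not called, and its 4 day 7 values in stromal-like cells, 26.3, 70.4, 42.0 and 62.4 CPM, reached the range of day 3. The day 7 cells lay in clusters 0 (45.8%), 8 (26.2%) and 9 (23.4%) of the stromal-like cells, whereas the day 3 cells lay mostly in the Prg4-led cluster. Car9, a HIF target that hydrates carbon dioxide outside the cell, had no UMI in day 0 stromal-like cells, which allows up to 0.499 CPM over the group, and stood at 0.715, 4.75, 0.0872 and 4.45 CPM at day 7, so that 1 of the 4 libraries lay below that limit.

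Between day 7 and day 21, 16 of 31 genes tested in stromal-like cells were lower (16.9% of all 12196 genes) and 2 higher (16.3%). Slc16a3 fell to 5.94, 12.3, 8.76 and 16.8 CPM (log2 -2.14 ± 0.35, adjusted p = 0.00139). Pkm fell from 455, 777, 574 and 865 CPM to 261, 229, 198 and 322 CPM (-1.37 ± 0.21, adjusted p = 0.000899), and Pfkl from 19.1 to 32.1 CPM to 3.86 to 9.44 CPM (-1.76 ± 0.24, adjusted p = 0.000531). No group overlapped for these genes, and 8 of the 12 enzymes tested were lower. Adm (log2 0.93, adjusted p = 0.00427) and the HIF hydroxylase gene Egln1 (0.51, adjusted p = 0.0236) were higher, with overlapping groups. The count was smaller within cluster 0. This cluster held 45.8% of the stromal-like cells at day 7 and 74.9% at day 21, and in it 2 of 31 genes were lower (6.64% of all genes), Slc16a3 (-1.19, adjusted p = 0.0068) and Bnip3 (-0.47, adjusted p = 0.0277), and 1 was higher (6.45%), Epas1 (1.14, adjusted p = 0.0146), while Pkm was at -0.09. The score at day 7 was 5.97 in cluster 8 (Crabp1, Krt10) and 5.76 in cluster 9 (Gzme, Sfrp1), against 5.58 in cluster 0 and 5.36 in cluster 13 (Myoc), and clusters 8 and 9 made up 3.87% and 3.1% of the cells at day 21.

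Against day 0, 12 of 28 genes were higher at day 21 (16.3% of all 10153 genes) and 4 lower (15.9%). Hif1a stood at 61.7, 53.8, 61.3 and 61.6 CPM at day 0 and at 258, 213, 243 and 314 CPM at day 21 (log2 2.16 ± 0.13, adjusted p = 1.51e-07). This gene had been at 327, 336, 332 and 373 CPM at day 7, so every library after injury was above every library of day 0. Slc16a3 (3.09 ± 0.54), Mif (1.52), Pdk1, Eno2, Slc16a1, Pfkfb3, Pkm, Ldha, Tpi1, Pgam1 and Gpi1 were also higher. The day 0 level of Slc16a3 rested on few UMIs, as given above. Pfkp, Hk2, P4ha1 and, with overlap, P4ha2 were lower by 0.40 to 1.06. P4ha1 and P4ha2 encode collagen prolyl hydroxylases. Within cluster 0, which held 31.8% of the day 0 cells, 4 of 26 genes were higher (11.4% of all genes), Hif1a (1.84), Mif, Tpi1 and Pkm, and 5 lower (12.6%), Hk2 (-1.66), Pfkp, P4ha1, Adm and Ndrg1. With sums thinned to the smallest library 10 genes passed, without a count over all genes.

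Of the 68 other pathway genes, 59 were tested in the mesenchymal cells at day 3 against day 0, of which 28 were higher and 15 lower (33.1% and 32.8% of all genes). Gapdh was higher by 2.79 ± 0.10 and the chemokine receptor gene Cxcr4 by 4.31 ± 0.41, while the placental growth factor gene Pgf was lower by 3.62 ± 0.25. At day 7 against day 3, 8 of 66 were higher and 23 lower (24.0% and 24.2%), the latter led by Tfrc (-1.68 ± 0.20). At day 21 against day 7, 8 of 62 were higher and 21 lower in stromal-like cells (16.3% and 16.9%), with the stress gene Ddit4 (-1.94 ± 0.23) and Eno1 (-1.73 ± 0.18) among the lower. At day 21 against day 0, 11 of 55 were higher and 12 lower (16.3% and 15.9%). Vegfa was lower, from 65.3 to 79.6 CPM at day 0 to 21.7 to 29.7 CPM at day 21 (-1.41 ± 0.12, adjusted p = 1.63e-06), the opposite direction to macrophage-like cells, in which it was higher at day 21 (2.10 ± 0.72, adjusted p = 0.0397). That difference between the types was not tested.

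In endothelial cells genes of the list moved in both directions. At day 3 most glycolytic enzyme genes tested and Hif1a were higher than at day 0, whereas Epas1, the HIF subunit typical of endothelium, and the hydroxylase genes were lower. Of 27 genes tested 13 were higher (29.0% of all 8842 genes) and 6 lower (27.8%), with medians of 0.31 over the 27 genes and -0.03 over all genes. The share of the list that was lower was thus below that of all genes. Among 10 enzymes 7 were higher and 0 lower, and Hk1, Pfkl and Pfkp did not pass. The score over the 13 enzymes rose from 6.16 to 6.82 while that over the other 21 genes went from 5.43 to 5.40.

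Epas1 stood at 958, 981, 953 and 973 CPM at day 0 and at 186, 401 and 250 CPM at day 3 (log2 -1.66 ± 0.19, adjusted p = 8.91e-06). Hif1a went from 65.3, 67.7, 44.1 and 72.3 CPM to 233, 141 and 259 CPM (1.89 ± 0.20, adjusted p = 3.56e-06). The libraries were separate for both subunits, in opposite directions. Slc16a3 rose from 2.25, 2.64, 2.70 and 4.72 CPM to 55.1, 30.6 and 62.7 CPM (4.09 ± 0.34, adjusted p = 4.6e-07), Pkm from 214 to 231 CPM to 813 to 1060 CPM (2.22 ± 0.10, adjusted p = 3.12e-09) and Pgk1 by 2.63 ± 0.17 (adjusted p = 5.73e-08). Pgam1, Mif, Slc2a1, Pdk1 (with overlap), Ldha, Tpi1, Gpi1, Ero1l and Aldoa were higher by 0.58 to 1.67. P4ha1 fell from 78.9, 96.7, 69.3 and 66.8 CPM to 21.0, 22.9 and 24.4 CPM (-1.64 ± 0.20), P4ha2 by 1.84 ± 0.26 and Egln1 from 46.6 to 57.6 CPM to 15.4 to 26.8 CPM (-1.29). Bnip3l and Ndrg1 fell by 0.90 and 0.58.

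The composition changed here too. At day 0, 88.7% of endothelial-like cells lay in cluster 10, led by Timp4, Tcf15 and Gpihbp1, and at day 3, 91.9% of 86 cells lay in cluster 12, led by Plvap, Aplnr and Selp. In cluster 12 alone, day 0 held 40 cells, and 2 libraries reached 10 cells. There 4 of 25 genes were higher (5.52% of all genes) and 0 lower (2.63%). At an unadjusted p under 0.05, 9 were higher and 2 lower, where 24.25% of all genes passed in either direction. The median of all genes was shifted by 0.37 in that comparison, and Slc2a1 (-0.91) and Pdk1 (-0.61) turned in sign. At day 3 the 24 macrophage markers summed to 1733 to 2323 CPM in endothelial-like cells and the 17 neutrophil markers to 1308 to 2215 CPM, against 284 to 585 CPM and 23.6 to 51.8 CPM at day 0, where 5 erythroid genes summed to 7866 to 16186 CPM. Genes of the cell cycle summed to 344 to 1327 CPM at day 3 and to 9.01 to 14.4 CPM at day 0. The part of these in the results was not tested. Endothelial-like cells at day 3 were also deeper, with a median of 17106 to 24353 UMIs per library against 2562.5 to 4078 at day 0.

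From day 3 to day 7, 6 of 27 genes fell in endothelial-like cells (8.69% of all genes) and 2 rose (7.21%). Slc16a3 fell to 14.0 to 19.2 CPM and Pgk1 by 1.66 ± 0.16 (adjusted p = 5.59e-05), with Pgam1, Mif, Ldha and Tpi1 lower by 0.37 to 0.75 and Bnip3l and Ndrg1 higher by 0.60 and 0.57. At day 21 against day 7, 6 of 27 were higher (16.2%) and 5 lower (14.3%). Epas1 rose from 305, 240, 266 and 297 CPM to 587, 771, 675 and 537 CPM (1.23 ± 0.13, adjusted p = 5.55e-05), with Pfkfb3, Egln1, Bnip3, Ndrg1 and P4ha2, while Pgk1, Slc16a3, Pkm (-1.0 ± 0.16, adjusted p = 0.000571), Mif and Ldha were lower. None of these groups overlapped. Cluster 12 held 87.5% of the cells at day 7 and 39.5% at day 21, and cluster 10 50.5% at day 21. In cluster 12 alone 4 of 26 genes were higher at day 21 (9.66% of all genes) and 3 lower (8.43%), and P4ha2 was at -0.06.

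Against day 0, 9 of 26 genes were higher at day 21 in endothelial-like cells (13.4% of all genes) and 3 lower (12.0%). Hif1a was higher by 1.48 on the log2 scale, Pfkfb3, known to drive vessel sprouting, by 0.95 and Pkm by 0.83, with Ndrg1, Pgam1, Tpi1, Gpi1, Mif and Ldha higher by 0.33 to 0.71. P4ha1 and P4ha2 were lower by 1.189 and 1.195, and Epas1 was still lower by 0.54 ± 0.10 (adjusted p = 0.00161). In cluster 10 alone 5 of 24 genes were higher (4.17% of all genes), Pfkfb3 (1.06), Tpi1, Pgam1, Gpi1 and Mif, and P4ha1 (-0.98) was the 1 lower gene (3.44%). Of the other pathway genes, 21 of 48 were higher at day 3 and 9 lower (29.0% and 27.8% of all genes), with Gapdh (2.01 ± 0.08), Hmox1 and Pgd higher and Rora and Nos2 lower. Later comparisons had 3 of 52 higher and 6 lower at day 7 against day 3 (7.21% and 8.69%), 4 of 52 and 11 at day 21 against day 7 (16.2% and 14.3%), and 10 of 48 and 0 at day 21 against day 0 (13.4% and 12.0%).

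**Figure D3:**
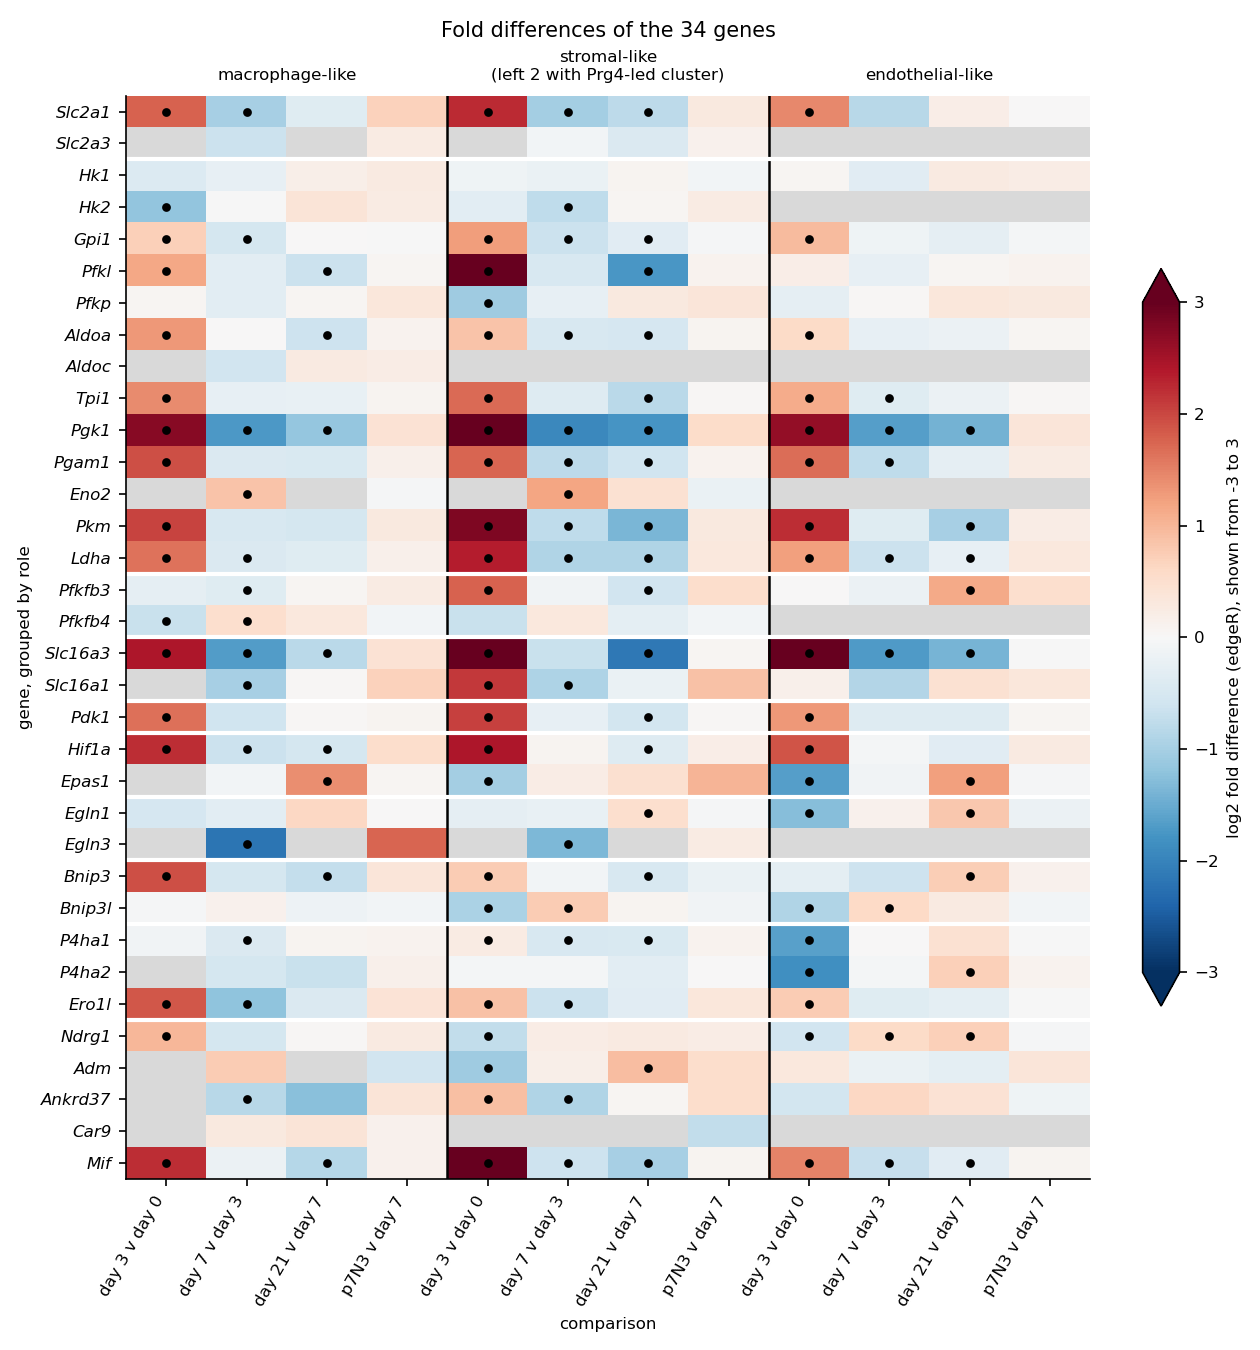
Log2 fold changes from edgeR (colour, limited to -3 to 3) of the 34 genes (rows, by role) in 12 comparisons of groups within cell types (columns); black dots mark calls (adjusted p under 0.05) and grey marks genes not tested. Most enzyme rows are red at day 3 against day 0 in macrophage-like, mesenchymal and endothelial-like cells (Pkm 2.04, 2.80 and 2.22), while Epas1 is blue in endothelial-like cells (-1.66), and no dot appears for p7N3.

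Neutrophils, short-lived cells known to draw their energy from glycolysis, were numerous enough for a comparison at day 3, when 304 of the 412 were found. There 22 of the 34 genes were higher in neutrophil-like than in macrophage-like cells of the same libraries (16.0% of all 10661 genes were higher) and 0 lower (11.7%), in edgeR's test with the library as a block. DESeq2 with the library as a term called 21 higher and 0 lower, without a count over all genes. At an unadjusted p under 0.05 edgeR had 24 higher and 0 lower, where 37.47% of all genes passed in either direction. The median over the 34 genes was 0.68 and over all genes -0.07. All macrophage clusters were added together here. The cluster led by Arg1, Gpnmb and Spp1 was not compared with neutrophil-like cells on its own.

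The high-affinity glucose transporter gene Slc2a3 stood at 64.5, 66.9 and 47.2 CPM in neutrophil-like cells and at 3.36, 2.50 and 2.60 CPM in macrophage-like cells (log2 4.71 ± 0.23, adjusted p = 3.89e-13). Slc16a3 stood at 608, 664 and 743 CPM, above the 142 to 203 CPM of macrophage-like cells (2.22 ± 0.12, adjusted p = 1.58e-12). Egln3 stood at 38.4, 43.6 and 108 CPM against 7.90 to 26.2 CPM (2.50 ± 0.17, adjusted p = 1.16e-10), and Ankrd37, a HIF target, at 61.7, 61.1 and 86.7 CPM against 23.2, 12.5 and 21.0 CPM (2.22 ± 0.17). No library of 1 type reached the other for these 4 genes. Slc2a1, Pfkp, Pfkfb4, Bnip3l and Hk1 were higher by 1.05 to 1.59, also without overlap. Ero1l (1.89 ± 0.19) and Bnip3 (1.64 ± 0.15) were higher in each library, although their ranges overlapped. In day 3 replicates 1, 2 and 3 Ero1l was at 57.6, 141 and 337 CPM in neutrophil-like and at 44.5, 36.9 and 88.8 CPM in macrophage-like cells. Aldoa, Pgk1, Pfkl, Pkm, Gpi1, Mif, Ldha, Pgam1, P4ha1 and Tpi1 were higher by 0.41 to 0.85, and Hif1a itself by 0.46 ± 0.11 (adjusted p = 0.00223). The 24 macrophage markers summed to 17004 to 20435 CPM in neutrophil-like cells, and the 17 neutrophil markers to 1973 to 2957 CPM in macrophage-like cells against 59289 to 96210 CPM in neutrophil-like cells.

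**Figure D4:**
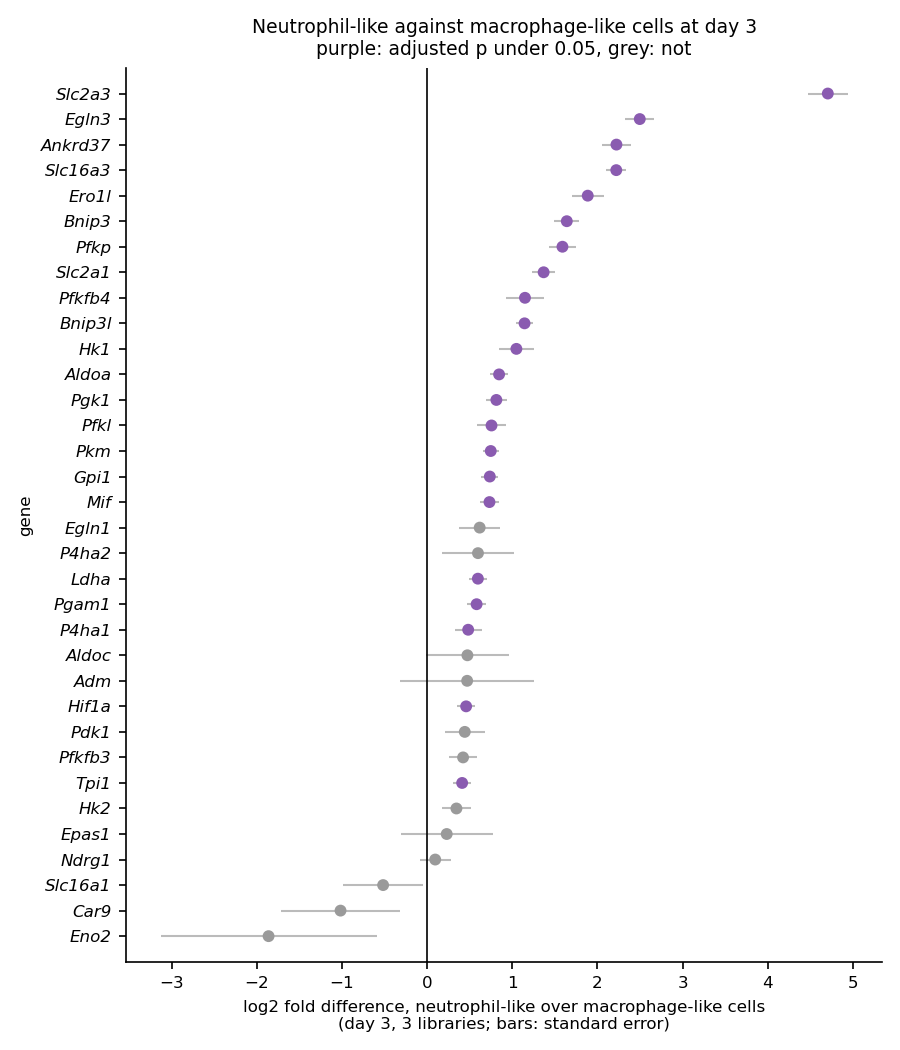
Log2 fold change of each of the 34 genes in neutrophil-like against macrophage-like cells of the same 3 day 3 libraries (x axis, from edgeR; bars are the SE), with genes at an adjusted p under 0.05 in purple. Slc2a3 lies farthest to the right at 4.71, followed by Egln3 at 2.50 and Ankrd37 and Slc16a3 at 2.22, and none of the genes to the left of 0 is purple.

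Other groups held fewer neutrophil-like cells, namely 13 at day 0, 20 at day 7, 9 at day 21 and 66 in p7N3 libraries, and were not tested. The only day 7 library with at least 10 of them scored 5.81, and 3 p7N3 libraries scored 6.46, 6.10 and 5.62, so that the p7N3 libraries ranged widely. The day 7 library held 10 cells and 49780 UMIs, and the p7N3 libraries 15, 20 and 23 cells. A count of 0 allows up to 60.3 CPM at day 7 and 11.2 CPM over the p7N3 group. These scores therefore cannot be set against that of day 3. Of the other pathway genes, 15 of 58 were higher in neutrophil-like cells and 5 lower (16.0% and 11.7% of all genes). They included the glycogen phosphorylase gene Pygl (2.05 ± 0.12) and Nos2 (2.42 ± 0.36) among the higher, and Hmox1 (-1.36 ± 0.11), which breaks down haem, among the lower.

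Cell types were also compared with each other gene by gene at day 7, where each of the 4 libraries held all 3 types. The balance between members of a gene family was not tested. Between macrophage-like and stromal-like cells 17 of 34 genes were higher in macrophages (37.3% of all 12498 genes) and 12 lower (40.0%). Slc16a1, the lactate transporter that can also import, stood at 4.20, 4.08, 5.80 and 4.09 CPM in macrophage-like and 59.2, 42.7, 49.3 and 52.2 CPM in stromal-like cells (log2 -3.21 ± 0.13, adjusted p = 7.5e-11). The collagen hydroxylase gene P4ha2 was lower in macrophages by 4.13 ± 0.12, Adm by 3.37 ± 0.25, Epas1 by 1.29 and Hif1a by 0.89. Pfkfb4 (2.68 ± 0.13), Ankrd37 (1.74) and Pfkfb3 (1.42) were higher in macrophages, as was the brain-type aldolase gene Aldoc (3.55), which stayed at or below 3.73 CPM.

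Between endothelial-like and stromal-like cells 9 of 32 genes were higher in endothelium (29.4% of all 12117 genes) and 13 lower (32.8%). Epas1 was higher by 4.53 ± 0.14 (adjusted p = 7.13e-12), at 240 to 305 CPM against 7.07 to 16.4 CPM. Hexokinase use was split, with Hk1 at 40.2 to 58.7 CPM in endothelium and 13.1 to 15.3 CPM in stroma (1.57 ± 0.13), and Hk2 at 2.09 to 4.24 CPM against 58.5 to 144 CPM (-5.34 ± 0.21, adjusted p = 8.7e-11). The ranges did not meet for any of these. Ankrd37 (2.10), Pfkp and Ndrg1 were higher in endothelium, and Eno2, Slc16a1, P4ha2, P4ha1, Slc16a3, Mif and Bnip3 were lower there, with log2 fold changes from -3.86 to -1.503. Of the other pathway genes, 25 of 62 were higher and 27 lower in macrophages than in stroma (37.3% and 40.0% of all genes), and 14 of 63 were higher and 31 lower in endothelium (29.4% and 32.8%).

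Whether macrophages and mesenchymal cells changed differently from day 0 to day 3 was tested as an interaction, with the Prg4-led cluster counted among the stromal cells. On each side different clusters made up the cells at day 0 and at day 3, as given above. The part of this in the differences was not tested. Of 30 genes the macrophage log2 change minus the mesenchymal one was above 0 for 6 (12.1% of all 11141 genes) and below 0 for 9 (16.9%). The rise in Slc16a3 was smaller in macrophages by 3.18 ± 0.41 on the log2 scale (adjusted p = 2.95e-07), from a higher start. The mesenchymal start rested on few UMIs, so the size of this difference is uncertain. The changes in Pfkl (-2.73 ± 0.46), Pfkfb3, Slc16a1, Hk2, Mif, Pkm, Ldha and Gpi1 were also less positive there. Ndrg1 (1.84 ± 0.28), Pfkp, Bnip3, Bnip3l, Aldoa and Egln3 had a difference above 0. For Egln3, at 0 in macrophages at day 0, the fitted value has no meaning as a size. Hif1a (-0.14 ± 0.21) and Pgk1 (-0.22 ± 0.35) did not pass. Of the other pathway genes 11 of 60 had a difference above 0 and 9 below 0 (12.1% and 16.9% of all genes), with Tfrc (-4.42 ± 0.38) among the latter.

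The effect of CD47 activation was asked by setting p7N3 against day 7, which shares its day 7 libraries with the comparisons of days above, as those share day 0 and day 3 libraries with each other. No gene of the list passed edgeR's test in any cell type, and no gene at all did (0% higher and 0% lower in macrophage-like, stromal-like and endothelial-like cells alike). In macrophage-like cells 29 of 34 fold changes were above 0, against 49.2% of all 10926 genes, with medians of 0.19 and -0.003. The score was 5.75 ± 0.11 with p7N3 and 5.57 ± 0.15 at day 7 (each n = 4), and the ranges of 5.64 to 5.85 and 5.40 to 5.75 overlapped. At an unadjusted p under 0.05, 8 of the 34 genes were higher and 0 lower (4.11% of all genes were higher), and DESeq2 called 0 (0.141% of all genes were higher).

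Hif1a in macrophage-like cells stood at 184, 125, 120 and 175 CPM at day 7 and at 211, 194, 264 and 210 CPM with p7N3 (log2 0.52 ± 0.14, adjusted p = 0.386 in edgeR). Slc16a1 was at 4.08 to 5.80 and 5.75 to 8.01 CPM (0.69 ± 0.17, adjusted p = 0.365) and Slc2a1 at 9.66 to 26.1 and 23.8 to 39.9 CPM (0.69 ± 0.23, adjusted p = 0.464). Egln3 was at 0.966 to 4.94 CPM and at 22.9, 4.47, 4.26 and 6.81 CPM, the highest being 1 library, replicate 1 (1.74 ± 0.57, adjusted p = 0.439). Within cluster 1, which held 32.5% and 33.5% of the type, 1 of 31 genes was higher (0.0447% of all genes), namely Hif1a (log2 0.75 ± 0.12, adjusted p = 0.0493), and 0 lower (0.0112%). No gene of the list was lower there at an unadjusted p under 0.05. Among these macrophage-like clusters the share of cluster 6 (Chil3, Ly6c2) changed most, from 4.68% at day 7 to 10.3% with p7N3. At Leiden resolution 2, an unnamed cluster led by Cxcl3, Il1a and Serpinb2 held 90 cells at day 3, 14 at day 7 and 105 with p7N3. These are sums over the libraries of each group, and the cluster was not particular to p7N3. The study lists Egln3 and Ero1l, with Cxcl3 and Il1a, for a macrophage cluster of the p7N3 mice. The part of these clusters was not tested.

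In stromal-like cells 6 of 33 genes were higher at an unadjusted p under 0.05 (6.96% of all 12655 genes) and 0 lower, and DESeq2 called 3 higher, Slc16a1, Pfkfb3 and Epas1 (0.637% of all genes). Slc16a1 stood at 59.2, 42.7, 49.3 and 52.2 CPM at day 7 and at 83.7, 83.9, 111 and 95.0 CPM with p7N3 (log2 0.88 ± 0.12, adjusted p = 0.0632 in edgeR). Pfkfb3 stood at 10.9 to 14.7 CPM and at 16.6 to 19.5 CPM (0.52 ± 0.12, adjusted p = 0.182). Epas1 stood at 7.07 to 16.4 CPM and at 14.6 to 27.0 CPM (1.02 ± 0.25, adjusted p = 0.182). Within cluster 0, 45.8% of the type at day 7 and 32.7% with p7N3, 3 of 31 genes were higher (0.179% of all genes), Slc16a1, Adm and Epas1, and 0 lower (0.0199%). At an unadjusted p under 0.05, 6 were higher and 0 lower, where 11.38% of all genes passed in either direction.

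In endothelial-like cells 5 of 27 genes were higher at an unadjusted p under 0.05 (4.62% of all 9800 genes) and 0 lower, and DESeq2 called 0 (0.00590%). Ldha stood at 553 to 632 CPM at day 7 and at 710 to 788 CPM with p7N3 (0.32 ± 0.08, adjusted p = 0.312). Hif1a stood at 211 to 228 CPM and 237 to 277 CPM (0.27 ± 0.08, adjusted p = 0.402). The difference between macrophage-like and stromal-like cells in the response to p7N3 was called for 0 of 34 genes (of all 12966 genes 0.0154% had a difference above 0, macrophage minus stromal, and 0% below 0). At an unadjusted p under 0.05, 3 genes had a difference above 0 (4.84% of all genes) and 2 below 0 (3.78%). Of the other pathway genes tested, 59 in macrophage-like, 64 in stromal-like and 54 in endothelial-like cells, edgeR called 0 in each.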

How the data were processed

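Gene by barcode matrices of UMI counts were used as the authors deposited them, raw and not normalized, from a 10x Genomics 3′ kit, with Cell Ranger and the mouse genome mm10 per the study's methods; the submitters' processing notes name GRCh38 as well as mm10, and the gene identifiers are of mouse.

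A barcode was kept as a cell from 500 genes upward, provided mitochondrial UMIs did not exceed 25%. Cells were clustered (scanpy 1.11.5, Leiden resolution 0.8, 2000 variable genes without the 34 genes and 68 other pathway genes, 30 principal components, 20 neighbours) and clusters were named from marker lists. The naming rule was revised after the cluster table had been seen. Names rebuilt in this way may differ from those of the study. Doublets were not removed in the main results, since Scrublet's own threshold marked 0.465% of cells; an alternative removed the top 3.9% of scores. For each library, the UMIs of a cell type were added up if it held 10 cells or more, so that n counts libraries. Sums were tested with edgeR 4.0.16 (R 4.3.3; TMM factors, filterByExpr, quasi-likelihood test, Benjamini-Hochberg adjustment over all genes tested, threshold 0.05), and with the library as a block between cell types of the same libraries. DESeq2 1.42.0 was an alternative. Fold changes are log2 with SE. CPM were taken over the UMIs of a library's cells of that type. The edgeR script was tested on simulated data. The limits given for genes without a UMI cover counting error only, whereas SD and SE take in the spread between libraries.

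The 34 genes, the pathway lists and the tests were chosen with earlier results of these data known. Members were named by role, all called members with their direction, and for other pathway genes at most the 3 largest called changes in each direction whose groups did not overlap and whose mean reached 10 CPM in a group. Some of the genes so chosen are not reported here. The stromal comparisons with day 3 and the interaction had been planned on stromal-like cells alone, of which too few were found at day 3, so the Prg4-led cluster was added after the data were seen. Alternatives comprised other factors, filters, tools, thinning, cell filters, clusterings, blocks and each library left out.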

Additional observations from a re-analysis of the deposited data

Results flagged for a closer look

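Within groups of 4 libraries, 173 values with a mean of at least 50 CPM, or scores, were checked for a library far from the other 3 (Dixon test), and 5 (2.89%) were marked, where chance marks about 1 in 20. The endothelial-like score at day 21 had 1 library at 5.758, below the others. The score of the Prg4-led cluster at day 7 had 1 library at 5.984, above the others. Mif in macrophage-like cells at day 0 had 1 library at 134.5 CPM, above the others, Bnip3l in stromal-like cells at day 7 had 1 at 141.8 CPM, and Hif1a in stromal-like cells at day 0 had 1 at 53.79 CPM, below the others.

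The change from day 0 to day 3 differed between macrophage-like cells and stromal-like cells with the Prg4-led cluster in 15 genes, by edgeR's interaction term. Different clusters made up each side at day 0 and at day 3, and their part was not tested. The difference, macrophage minus mesenchymal on the log2 scale, was below 0 for Hk2 (-0.824), Gpi1 (-0.441), Pfkl (-2.730), Pfkfb3 (-1.856), Pkm (-0.679), Ldha (-0.654), Slc16a3 (-3.184), Slc16a1 (-1.796) and Mif (-0.819). It was above 0 for Pfkp (1.278), Aldoa (0.518), Bnip3 (1.160), Bnip3l (0.998), Ndrg1 (1.837) and Egln3 (7.775). The value for Egln3 rests on a group at 0 and depends on the prior count of the fit. That for Slc16a3 rests on few UMIs in the mesenchymal cells of day 0.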

How the results depend on the processing

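Over 20 comparisons, 298 of 321 counts of called genes stayed within 1.5 times the main count under an alternative, and of 2881 values of called genes under other settings, leaving aside those added after the data were seen, 2649 (91.9%) were past the threshold in the same direction and 0 had the opposite sign. The calls lost most often were Tpi1 in endothelial-like cells at day 7 against day 3 (16 of 18 alternatives) and Gpi1 in stromal-like cells at day 21 against day 0 (15 of 21). With only the largest shared cluster, chosen after the data were seen, macrophage-like cells had 10 genes called at day 3 against day 0, 0 at day 21 against day 7, 3 at day 21 against day 0 and 1 for p7N3; stromal-like cells had 3, 9 and 3 in the last 3 comparisons, and endothelial-like cells 4 at day 3 against day 0, 7 at day 21 against day 7 and 6 at day 21 against day 0. The shares of all genes for these counts are given in the Results. Over all comparisons, 56 of 119 values of called genes (47.1%) stayed past the threshold in the same direction with that cluster alone. Another 53 fell short of the threshold and 10 had the opposite sign. Fewer cells and genes entered those fits. There Hif1a turned to 0.105 (log2, macrophage-like, day 21 against day 7), Aldoa to -0.125 (macrophage-like, day 21 against day 0), Slc2a1 to 0.204, Gpi1 to 0.025, Adm to -0.014, Aldoa to 0.043 and Hif1a to 0.104 (stromal-like, day 21 against day 7), Pdk1 to -0.607 and Slc2a1 to -0.913 (endothelial-like, day 3 against day 0) and P4ha2 to -0.059 (endothelial-like, day 21 against day 7). With all unnamed mesenchymal clusters added, 57 of 74 values (77%) stayed past the threshold in the same direction, 13 fell short and 4 turned in sign. Slc2a1 turned to 0.972 and Bnip3 to 0.158 (stromal-like, day 21 against day 7), Slc16a1 to -0.831 (day 21 against day 0) and Slc2a1 to -1.159 (day 3 against day 0). The endothelial-like score difference, day 21 minus day 7, was -0.002 and turned to 0.068 without Pkm, Aldoa, Ldha, Mif and Tpi1. Without these genes the difference of day 3 minus day 0 went from 0.675 to 0.513 in macrophage-like and from 0.232 to 0.073 in endothelial-like cells. That of day 21 minus day 0 went from 0.167 to 0.047 in macrophage-like, 0.121 to 0.049 in stromal-like and 0.086 to 0.035 in endothelial-like cells. The causes were not tested.

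Macrophage-like cells at day 21 against day 7 had 13 genes called with no filter and 5 with replicates 1 to 3 only. Stromal-like cells at day 21 against day 0 had 10 with thinned sums. For p7N3 in stromal-like cells 3 were called by DESeq2, and 1, Slc16a1, with no filter, with a single fit of all groups and at Leiden resolution 2; the interaction for p7N3 had 1, Bnip3, with no filter. Leaving out each library in turn gave 8 to 19 calls in macrophage-like cells at day 7 against day 3, 5 to 12 at day 21 against day 7 and 0 to 1 for p7N3 in stromal-like cells, the 1 without p7N3 replicate 1. The counts in this paragraph are given here without counts over all genes.

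With the replicate number as a block, 20, 18, 10, 8 and 0 genes were called in macrophage-like cells (day 3 against day 0, day 7 against day 3, day 21 against day 7, day 21 against day 0, p7N3), 19, 15 and 0 in stromal-like cells, 24 and 16 with the Prg4-led cluster, and 18, 6, 10, 12 and 0 in endothelial-like cells. These block counts are given without counts over all genes. Correlations of same-numbered libraries ran from -0.246 to 0.318 (median -0.001, 54 values), and in 0 of 15 comparisons were all over 0.1, so the numbers were not taken to pair the libraries. Low counts at day 0 limited what could be tested.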
